A study of Homo sapiens with 18 samples.

Results

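The peaks described here are places away from known gene starts where tagged UBR7 was recovered on chromatin that was also open to a transposase. They were selected from the authors' list of 5895 peaks of GFP-tagged UBR7 by position and by overlap. A peak was taken when it lay more than 1 kb from the start of each of the 14177 genes in the deposited RNA table and shared at least 1 bp with an ATAC peak of any of 4 deposited lists. This gave 1508 peaks, 25.6% of all GFP-UBR7 peaks. They are called distal open peaks below. Open means listed by the authors' ATAC caller, with no further cut on how sure each call was. Of the rest, 882 were distal and not open in any list, 3165 lay within 1 kb of a gene start and were open, and 340 lay within 1 kb of a gene start and were not open.

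UBR7 is a protein with a UBR box and a PHD finger, and the series presents it as a chaperone of histone H3 after H3 has left the nucleosome. Histone chaperones escort histones off and onto DNA, and nucleosome turnover is known to be fast at active promoters and enhancers. ATAC-seq inserts adapters where DNA is not wrapped in nucleosomes, so open places far from gene starts are commonly enhancers, insulators or starts that an annotation does not hold.

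All samples came from HEK293T, a human cell line long established from embryonic kidney, grown in DMEM with serum. ChIP for GFP was made once, with 1 input library, from cells whose own UBR7 gene was tagged with GFP through CRISPR-Cas9. The ATAC-seq data hold 2 parental libraries and 2 of UBR7KO cells, in which CRISPR-Cas9 was used to knock out UBR7. The RNA-seq data hold 3 parental and 3 UBR7KO libraries, of which UBR7KO 1 and UBR7KO 2 carry the label KO1 and UBR7KO 3 the label KO2. Both UBR7KO ATAC libraries carry in their descriptions the code given for the RNA library labelled KO2. The labels do not say that the replicates are separate cultures, so p-values measure the spread between these libraries, which may be technical. The GFP peaks come from 1 library, so no peak has a replicate, and the peaks were called in other cells than the knockout lines.

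UBR7 RNA was read first as a check of the labels. Parental libraries read 55, 62.2 and 62.2 CPM (counts scaled by the authors to a fixed total per library), with 27 and 26.3 CPM in the KO1 libraries and 64.5 CPM in the library labelled KO2. The KO1 libraries were low and the library labelled KO2 was above every parental library, so the groups overlapped (difference of means over 3 against 3 libraries, exact two-sided permutation p = 0.4, with 0.1 the smallest this design can give). RNA of a disrupted gene can persist, so this does not tell whether the protein is present. Of the 5 libraries whose reads could be recovered from the deposited values, totals ran from 22153291 to 29811908 reads. Of the features listed for HEK293T, all 8 were in the RNA table, and NEFM, a neurofilament subunit typical of this line, stood between 27.7 and 211 CPM. The keratinocyte markers KRT5, KRT14 and TP63 were not in the table, nor were PTPRC, CD3E and SPI1 of the blood list. Of the fibroblast list, COL1A1, COL3A1 and LUM were in the table and DCN was not, with COL1A1 between 5.97 and 12.6 CPM.

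A large part of the distal open peaks lay near a start that the RNA table does not give. Each gene has 1 start in that table, while the authors' file of clustered gene starts holds 13176 RefSeq starts. Within 1 kb of such a start lay 504 of the 1508 peaks (33.4%), and 149 (9.88%) lay across it. Among distal peaks that were not open, 6.8% lay within 1 kb of a RefSeq start, and among all 48491 distal ATAC regions 3.79% did. Of the 2499 distal ATAC regions held by all 4 lists, however, 40.8% did. Nearness to a RefSeq start is thus not particular to GFP-UBR7 peaks. Of 499 such peaks whose start could be given a gene symbol, 313 lay at another start of the very gene whose table start was nearest. A further 92 lay at a start of another gene in the table, and 94 at a start whose gene was not matched to the table. The other 1004 peaks lay more than 1 kb from both kinds of start.

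The peak sequences themselves were not read, since the coordinates are of the GRCh37 type and no genome of that build was used. The promoters that the first kind of peak touches are known from RefSeq (GRCh38.p14), as 300 bases from 250 before to 50 after a start. Of 437 RefSeq genes with a start within 1 kb of a distal open peak, 357 had such a promoter. For 173 of them the start was taken as the same in both builds, because its spacing to at least 2 of its 6 nearest neighbours was equal to within 100 bases. Below are the promoters under 4 of the 6 highest-scoring peaks that cross such a start, shown because they place distal peaks on gene starts. Capitals mark the letters of any of 9 searched motifs.

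ACSF3: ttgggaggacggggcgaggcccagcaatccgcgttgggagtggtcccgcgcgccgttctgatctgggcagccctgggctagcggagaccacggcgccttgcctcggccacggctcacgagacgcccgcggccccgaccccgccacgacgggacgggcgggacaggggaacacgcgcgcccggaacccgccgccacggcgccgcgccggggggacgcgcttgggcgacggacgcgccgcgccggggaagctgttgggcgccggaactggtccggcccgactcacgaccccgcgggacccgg
KANSL3: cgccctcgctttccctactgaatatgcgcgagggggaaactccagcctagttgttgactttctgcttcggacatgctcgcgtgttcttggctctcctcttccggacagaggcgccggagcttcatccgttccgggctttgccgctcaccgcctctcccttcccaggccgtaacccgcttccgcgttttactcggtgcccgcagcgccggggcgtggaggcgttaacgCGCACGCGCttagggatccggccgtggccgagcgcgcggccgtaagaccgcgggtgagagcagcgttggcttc
NOL12: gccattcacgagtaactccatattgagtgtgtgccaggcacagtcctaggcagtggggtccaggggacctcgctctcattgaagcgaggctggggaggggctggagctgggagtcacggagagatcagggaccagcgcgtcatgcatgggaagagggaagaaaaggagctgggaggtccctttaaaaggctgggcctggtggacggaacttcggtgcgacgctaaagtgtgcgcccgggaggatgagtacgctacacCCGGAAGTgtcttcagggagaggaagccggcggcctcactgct
CTNNB1: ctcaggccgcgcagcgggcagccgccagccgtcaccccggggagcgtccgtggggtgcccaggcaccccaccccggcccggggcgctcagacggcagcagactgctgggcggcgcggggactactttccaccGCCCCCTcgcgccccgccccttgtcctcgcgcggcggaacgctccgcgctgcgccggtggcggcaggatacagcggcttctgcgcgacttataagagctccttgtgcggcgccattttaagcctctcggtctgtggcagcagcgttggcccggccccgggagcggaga

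ACSF3, a mitochondrial malonyl-CoA synthetase, has none of the 9 motifs in a promoter that is 78% G and C with 51 CG dinucleotides (chromosome 16, 89093602 to 89093901, plus strand). KANSL3, a subunit of the NSL histone acetyltransferase complex, holds 1 NRF1 match (chromosome 2, 96638263 to 96638562, minus strand). NOL12, a nucleolar RNA-processing protein, holds 1 ETS match in a promoter of 60.7% G and C (chromosome 22, 37686093 to 37686392, plus strand). CTNNB1, the gene of beta-catenin, holds 1 match to the CTCF core (chromosome 3, 41199255 to 41199554, plus strand). In the coordinates of the deposited files these peaks lie 5256, 4190, 4487 and 4432 bp from the nearest start in the RNA table, in the order ACSF3, KANSL3, NOL12 and CTNNB1. Their scores were 384.63, 247.01, 207.5 and 204.15. The peaks at ACSF3, KANSL3 and CTNNB1 were open in all 4 ATAC lists, and the peak at NOL12 was open in both genotypes but not in every list.

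The 173 promoters had a median of 68.7% G and C and 32 CG dinucleotides. Over all 27305 promoters of the table the medians were 58.3% and 14, and over the 6838 promoters whose start in the authors' cluster file was matched in the same way they were 66.3% and 28. On either strand, GCGCNTGCG (NRF1) stood in 15% of the 173, in 8.05% of all promoters and in 17.7% of the matched ones. CCGGAAGT (ETS) stood in 6.94%, 4.44% and 10.4% of these sets in the same order, AAGATGGCG (YY1) in 2.89%, 1.85% and 4.45%, TGACGTCA (CRE) in 3.47%, 1.98% and 3.93%, and CCACGTG (the E-box of MYC and USF) in 5.2%, 4.36% and 6.38%. These 5 motifs were thus more frequent than in all promoters and less frequent than in the matched ones. AGGGGGC (CTCF core) stood in 41 of the 173, at 23.7% against 14.1% and 21.5%. TGANTCA (AP-1) stood in 4, at 2.31% against 7.76% and 3.26%. GGAATG (TEAD) stood in 16, at 9.25% against 14% and 9.51%. AGATAAG (the letters of GATA factors) stood in 1, at 0.578% against 2.63% and 0.951%. For all 9 motifs the gaps to the matched promoters amount to few promoters and were not tested. The 1737 promoters with a GFP-UBR7 peak at an open gene start of the RNA table had 69% G and C, and 16.6% held the NRF1, 25.3% the CTCF and 11% the ETS letters. Motif matches move with base composition, whose part was not tested.

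Of the 1508 distal open peaks, 824 (54.6%) lay in the body of a gene in the table and 684 (45.4%) lay between genes. The distal peaks that were not open lay in gene bodies at 46%. For 633 peaks (42%) the body was that of the gene with the nearest start, and 191 (12.7%) lay in another gene only. Downstream of the nearest start lay 924 peaks (61.3%) and upstream 584 (38.7%). Only 46 (3.05%) lay within 1 kb of a gene end. The place went with the RefSeq starts: peaks within 1 kb of one lay in gene bodies at 83.3%, and peaks beyond at 40.2%. The 600 peaks both between genes and beyond 1 kb of a RefSeq start made up 39.8% of the set.

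The median distance from a distal open peak to the nearest start in the RNA table was 20104 bp, with quartiles at 6254 and 60450 bp. It was 31440 bp for distal peaks that were not open and 85162 bp for all distal ATAC regions. Between 1 and 2 kb lay 181 peaks (12%), against 1.79% of distal ATAC regions. Farther than 100 kb lay 224 peaks (14.9%), against 28.2% of distal peaks that were not open and 45.8% of distal ATAC regions. Near the limit of 1 kb, the peaks taken lay at 1003 bp from CACYBP, 1013 bp from RILP and 1013 bp from GYLTL1B. Those just left out lay at 997 bp from RNF138, 995 bp from U2AF2 and 992 bp from STK35. Peaks on either side of the limit overlapped in score: CACYBP had a score of 107.96 and RNF138 one of 86.45, and both were open in all 4 lists.

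**Figure D1:**
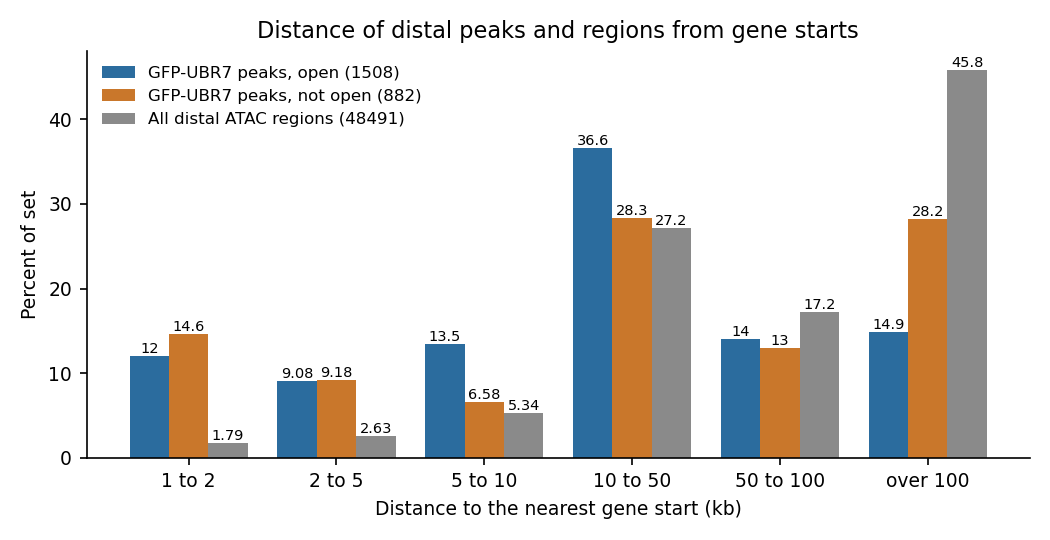
Share of distal open GFP-UBR7 peaks, distal GFP-UBR7 peaks that were not open and all distal ATAC regions (y axis, percent of each set) by distance to the nearest gene start of the RNA table in kb (x axis). Open peaks are the most frequent set between 5 and 50 kb, and ATAC regions over 100 kb.

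The score in the peak list was given by the authors' caller and has no stated scale, so it serves to rank peaks of this list. Its lowest value over the whole list was 50. Distal open peaks had a median score of 64.9 (quartiles 55.9 and 85.5, highest 508). Distal peaks that were not open had a median of 57, and open peaks at gene starts 68.9. Median lengths in the same order were 208, 155 and 231 bases, and the part of length in the overlap with ATAC peaks was not tested. The share of distal peaks that were open went from 47.2% in the lowest of 4 equal classes of score through 56.1% and 69.3% to 79.8% in the highest. The share open in all 4 lists went from 9.7% to 29.8% over the same classes. Among distal open peaks the median score was 68.9 within 1 kb of a RefSeq start and 64.2 beyond, 66.8 in gene bodies and 63.3 between genes.

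**Figure D2:**
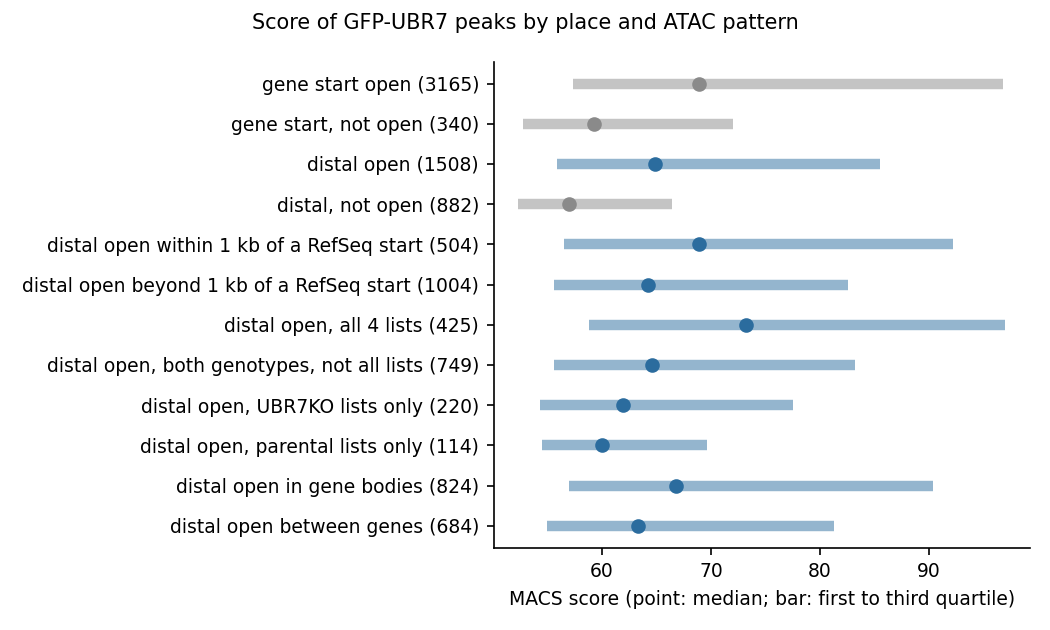
Score of GFP-UBR7 peaks (x axis, MACS score with no unit) by place and ATAC pattern (y axis, number of peaks in brackets); points are medians and bars run between the quartiles. Among the distal open sets, drawn in blue, the median runs from 60 for peaks in parental lists only to 73.2 for peaks in all 4 lists.

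The highest score in the set, 507.92, belonged to a peak of 2305 bases on chromosome 6 (58777059 to 58779363), also its longest. It lay beside the centromere, 489280 bp from LINC00680, between genes. The next peak, of score 446.2, lay in ZBTB45, a zinc-finger gene, 105 bp from its RefSeq start and 7247 bp from the table start of SLC27A5 (chromosome 19, 59031027 to 59031457). A peak of score 438.39 lay 2155 bp from RAD54L2, a SNF2-family helicase, outside the gene. Others of the 10 highest lay in ACSF3, in CLK3 (a kinase of splicing factors), in RCC1 (the exchange factor of the GTPase Ran), 75010 bp from ARID1A (a subunit of the BAF remodeller), in ZNF48 and in NOSIP. Of these 10, 5 lay within 1 kb of a RefSeq start, those at ZBTB45, ACSF3, CLK3, RCC1 and ZNF48. The farthest peaks from any start in the table had low scores: 52.21 for a peak on Y, 53.19 for one on chromosome 2, and 74.01 for one 1798261 bp from ZNF736. The peak listed on Y lay 122 bp from a RefSeq start of CD24. Whether its reads came from Y or from like sequence elsewhere was not tested. The peaks farthest out on chromosomes 2 and 7 lay beside centromeres, as the one of highest score did. A peak of score 175.46 in UBR7KO lists only lay at the very start of chromosome 4 (10117 to 10195), and its 79 bases made it 1 of the 2 shortest of the set.

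Most distal open peaks were open in more than 1 ATAC list, where open includes weak calls. The authors' ATAC caller gave each peak a −log10 q, higher for surer peaks. For distal ATAC peaks with a distal open GFP-UBR7 peak, its lower quartile was 0.814 in parental 1 and 0.933 in parental 2. It was 0.906 in UBR7KO 1 and 1.21 in UBR7KO 2. A place in a list is thus not strong evidence of open chromatin by itself. All 4 lists held 425 (28.2%), 387 were in 3 lists, 406 in 2 and 290 (19.2%) in 1. Of the 48491 distal ATAC regions, 5.15% were in all 4 lists and 65.3% in 1. Both genotypes, without being in all 4 lists, held 749 peaks. The peaks in all 4 lists had a median score of 73.2 and lay within 1 kb of a RefSeq start at 54.1%. Distal ATAC regions in all 4 lists that held no GFP-UBR7 peak lay there at 36.9%.

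**Figure D3:**
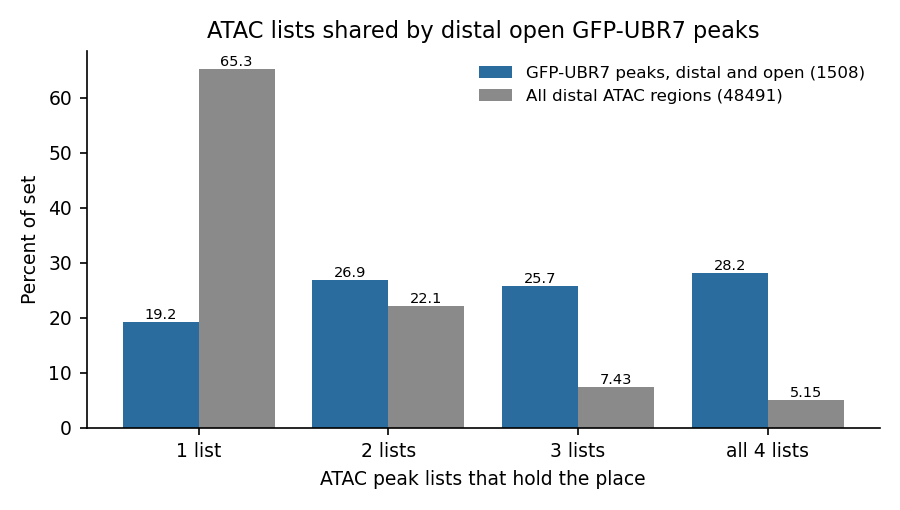
Share of distal open GFP-UBR7 peaks and of all distal ATAC regions (y axis, percent of each set) by the number of ATAC lists that hold them (x axis). The peaks spread over 1 to 4 lists at 19.2% to 28.2%, while 65.3% of the regions stand in 1 list.

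The number of open peaks in each library followed the length of its list. Parental 1 listed 10507 peaks and held 530 distal open peaks (35.1%), parental 2 listed 38529 and held 1263 (83.8%), UBR7KO 1 listed 15310 and held 836 (55.4%), and UBR7KO 2 listed 45920 and held 1334 (88.5%). In each replicate the UBR7KO list was longer and held more of the peaks. Only in UBR7KO lists were 220 peaks (14.6%), with a median score of 61.9, and only in parental lists 114 (7.56%), with a median of 60. All distal ATAC regions had 40.7% and 25.8% in these classes, so the UBR7KO class was the larger one there too. Both UBR7KO lists and no parental list held 39 peaks, and both parental lists and no UBR7KO list held 5. The part of list length in these counts was not tested, and openness was not tested between 2 libraries and 2.

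At places where both genotypes had a peak, the −log10 q of the authors' ATAC caller was compared within a replicate. In replicate 1 it was higher in UBR7KO at 243 of 436 distal open peaks (55.7%), against 57% of distal regions. In replicate 2 it was higher in UBR7KO at 689 of 1116 (61.7%), against 62.4% of distal regions. In both replicates the peaks thus stood close to the distal regions as a whole. ATAC peaks with a distal open GFP-UBR7 peak had a higher median −log10 q than other distal ATAC peaks in all 4 lists, at 1.08 against 1.05 in parental 1, 1.39 against 1.27 in parental 2, 1.23 against 1.19 in UBR7KO 1 and 1.97 against 1.78 in UBR7KO 2. The upper quartile was lower with such a peak in each list, at 1.63 against 1.69, 2.37 against 2.48, 1.8 against 1.9 and 3.56 against 3.68 in the same order. The ATAC peaks with a GFP-UBR7 peak were also wider, at a median of 420 against 302 bases in parental 1 and 510 against 196 in UBR7KO 2.

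Read from the ATAC side, a GFP-UBR7 peak was more frequent the more lists held a region. Of distal regions, 0.591% of those in 1 list held one, 2.84% of those in 2, 8.85% of those in 3 and 19.5% of those in all 4. At gene starts the shares were 10.2%, 17.7%, 26.2% and 30.1%. Regions were merged over the lists and a wider region meets a peak more easily. The part of region width in these shares was not tested. Even in all 4 lists, distal regions held a GFP-UBR7 peak less often than gene starts did, as a share of 2499 against 6295 regions. Distal regions in all 4 lists lay in gene bodies at 63.7% when they held a GFP-UBR7 peak and at 49% when they did not.

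**Figure D4:**
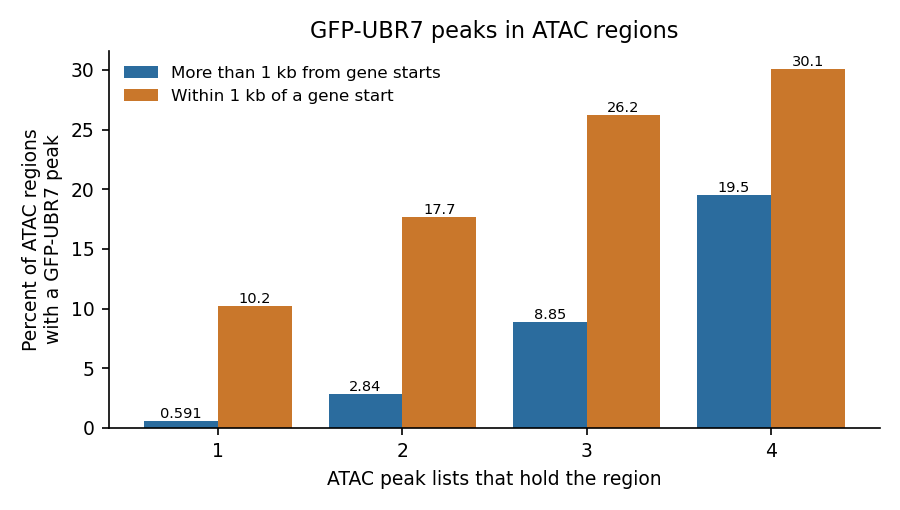
Share of ATAC regions that hold a GFP-UBR7 peak (y axis, percent) by the number of ATAC lists that hold the region (x axis), away from and at gene starts. The distal share goes from 0.591% to 19.5% and the gene-start share from 10.2% to 30.1%.

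The leading peaks open in 1 genotype mostly rested on 1 ATAC list. A peak of score 257.04 in SEMA4C, a semaphorin gene, was in both UBR7KO lists at −log10 q of 0.722 and 1.99. One of score 221.47 in BBC3, the gene of the cell-death protein PUMA, was in UBR7KO 1 alone at 0.619. One of score 170.58 in PTMA, the gene of the acidic nuclear protein prothymosin alpha, was in UBR7KO 2 alone at 2.22. Among peaks in parental lists only, those in C17orf75 (score 193.7), in CIC, a transcriptional repressor (187.18), and 64241 bp from PAX2, a kidney transcription factor (216.03), were in parental 2 alone, at 4.28, 2.62 and 0.802. None of these parental peaks was in both parental lists.

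The 1508 peaks had 1244 nearest genes, 8.77% of the table. Of these, 1030 had 1 peak, 174 had 2 and 40 had 3 or more. DAB2IP, a GTPase-activating protein of the Ras family, had 6, with scores from 58.1 to 119 at 16219 to 84384 bp from its start. SYNM, the gene of the intermediate filament protein synemin, had 4, all of them open in all 4 lists. NFIA, a transcription factor of glial and kidney development, had 4, all in its own body. LINGO1 and FLJ27365 also had 4, and ARID1A had 3. RNY1, a small RNA with many copies in the genome, had 5 with scores from 51.9 to 60.2. Another GFP-UBR7 peak lay within 10 kb for 470 peaks (31.2%). A GFP-UBR7 peak within 1 kb of their own start was found for 352 of the nearest genes (28.3%), against 24.4% of all genes in the table.

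Some genes that handle histones and enhancers were among the nearest genes. Of 27 histone chaperones and assembly factors, 5 were nearest genes: RBBP7, SSRP1 (a FACT subunit), TSPYL1, NPM1 (nucleophosmin) and IPO4 (a histone importer). Of 16 H3K4 methylation genes, KMT2B and SETD1A were, and of 11 enhancer chromatin genes SMARCA2, ARID1A and CHD7. None of 7 UBR-box genes and none of 7 architectural genes was. The shares of the histone chaperone, H3K4 methylation and enhancer chromatin lists were above the 8.77% of the table. They rest on few genes each and were not tested, and a long gene or gene-poor place takes more nearest peaks. RNA of NPM1, the most expressed of the first list, was 1823, 2650 and 2968 CPM in parental and 1877, 2648 and 2795 CPM in UBR7KO libraries.

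RNA of the nearest genes was then compared between genotypes, with limma over all tested genes. Over 6 libraries none of 1218 tested nearest genes passed an adjusted p of 0.05, with 0% of all 13697 tested genes called higher and 0% lower. Unadjusted p was under 0.05 for 1 upward and 5 downward, against 23 and 47 over all genes. On the whole reads of 5 libraries, edgeR's quasi-likelihood test and DESeq2 each called 0 nearest genes higher and 0 lower. Over all 13819 genes edgeR called 0% in either direction, and DESeq2 called 1 higher (0.00724%) and 5 lower (0.0362%). In bulk RNA, fewer cells that express a gene and less RNA per cell cannot be told apart. The median change was 0.04 on the log2(CPM + 1) scale, against 0.01 for all genes. By pair of libraries, the median over nearest genes was 0.042, 0.075 and 0.002, against -0.003, 0.067 and -0.018 over all genes. The gap to all genes was small, and the median itself moved with the libraries: it was -0.02 without UBR7KO 1 (all genes -0.04), 0.00 without parental 3 (-0.02) and 0.02 without parental 2 (-0.01), and it was 0.11 without parental 1 (0.08) and 0.09 without UBR7KO 3 (0.07). Between the KO1 libraries and the parental libraries of the same dates, the fit without pairs called none of 1237 nearest genes and 0% of all 14059 genes in either direction. Unadjusted p was under 0.05 for 7 upward and 6 downward, against 115 and 101 over all genes. Without parental 1, edgeR's quasi-likelihood test on whole reads called 4 nearest genes higher and DESeq2 1, and neither called any lower. Over all 13552 genes edgeR called 23 higher (0.17%) and 8 lower (0.059%), and DESeq2 6 (0.0443%) and 3 (0.0221%).

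With the date pair as a replicate block in the KO1 comparison, limma called 38 nearest genes higher (3.07%) and 15 lower (1.21%). Over all genes 303 were higher (2.16%) and 193 lower (1.37%). The gaps between these shares were not tested, and nothing about the nearest genes is read from them. The calls rest on 2 pairs of libraries of 1 line, and the genes below were named after the block was seen to give calls. This fit has 1 residual degree of freedom. Its SE and p-values, also those given per gene below, thus rest mostly on the spread that limma shares over all genes. They are not strong evidence from replicates of the gene itself. Over all 3 pairs with the block, limma called 0% of all genes higher and 0% lower, and 64 of 1218 nearest genes had an unadjusted p under 0.05 upward and 28 downward, against 473 and 282 of all 13697. Of the 53 called genes, 27 had the same direction in the pair labelled KO2, and 19 had a distal open peak within 10 kb. Between the pair labelled KO2 and the KO1 pairs, limma found a different change for 18 of the 53 and for 5.03% of all tested genes. The 53 were chosen on the same KO1 pairs, so nothing is read from that count. Beyond 1 kb of RefSeq starts, 22 of 845 nearest genes were called higher (2.6%) and 9 lower (1.07%), and near RefSeq starts 17 of 434 were higher (3.92%) and 6 lower (1.38%). The called genes were not spread evenly over chromosomes: 15 of the 38 rises were on chromosome 1, which has 152 of the 1237 tested nearest genes, and 5 of the 15 falls on chromosome 9, which has 49. All tested genes had the same lean, with 95 of 303 rises on chromosome 1 and 54 of 193 falls on chromosome 9.

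The largest rise was of COL6A3, a chain of collagen VI with 2 distal open peaks, the nearer at 7203 bp. It read 1.75, 0.316 and 0.618 CPM in parental cells, 7.99 and 3.69 CPM in KO1 and 0.436 CPM in the library labelled KO2. Only the KO1 libraries were high (log2 change in KO1 1.77, SE 0.20, limma with the block adjusted p = 1.21e-05), and with a pseudocount of 0.1 in place of 1 the change was 2.66. NES, the gene of the intermediate filament protein nestin, with 1 peak 17089 bp away, stood at 7.84, 16.6 and 5.97 CPM in parental libraries, 20.5 and 36.6 CPM in KO1 and 4.56 CPM in the library labelled KO2. Each KO1 library was above all 3 parental libraries (1.19, SE 0.15, adjusted p = 5.31e-05 by limma with the block). MIDN, a nuclear protein that carries substrates to the proteasome, has a peak in its body 1323 bp from the start. It stood at 12.7, 10 and 20 CPM in parental libraries, at 25.6 and 20 CPM in KO1 and at 21.7 CPM in the library labelled KO2, a log2 change of 0.95. The other rises named were QSOX1 (0.84), LZTS2 (0.81), GPR161 (0.72), GPRC5C (0.69), LRP1 (0.69), RNA5-8SP6 (0.69) and FAM189B (0.65). RNA5-8SP6 is a ribosomal RNA pseudogene whose reads may come from its copies. It is a nearest gene only through the peak listed on Y, 11117064 bp away.

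The largest fall was of ACSS3, a mitochondrial acyl-CoA synthetase whose nearest distal open peak is 159597 bp away. It stood at 7.26, 7.76 and 9.09 CPM in parental libraries, at 0.303 and 0.589 CPM in KO1 and at 4.13 CPM in the library labelled KO2. The 2 groups did not overlap, and the KO1 libraries were the lowest (-2.56, SE 0.20, adjusted p = 4.2e-08 by limma with the block). With a pseudocount of 0.1 the change was -3.85. CDKN2B, the gene of the cell-cycle inhibitor p15, stood at 6.89, 9.12 and 4.43 CPM in parental libraries, 2.31 and 2.86 CPM in KO1 and 4.76 CPM in the library labelled KO2 (-1.32, SE 0.20). KLHL9, an adaptor of a cullin ubiquitin ligase, stood at 104, 74.3 and 53.1 CPM in parental libraries, 59 and 40.1 CPM in KO1 and 85.2 CPM in the library labelled KO2 (-0.84, SE 0.12). Both lie on chromosome 9, with peaks 437997 and 60618 bp away. RAP1GAP2, a GTPase-activating protein of Rap1, stood at 16.1, 14.2 and 21.5 CPM in parental libraries and at 8.79, 7.61 and 5.23 CPM in UBR7KO libraries, the lowest in the library labelled KO2 (-0.81 in KO1). The other falls named were CNTNAP2 (-0.87), SLC13A4 (-0.83), DOC2A (-0.82), PLP2 (-0.81), RNU4-1 (-0.76) and PIGL (-0.67). RNU4-1, a U4 spliceosomal RNA, has near-identical copies and its counts are uncertain.

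**Figure D5:**
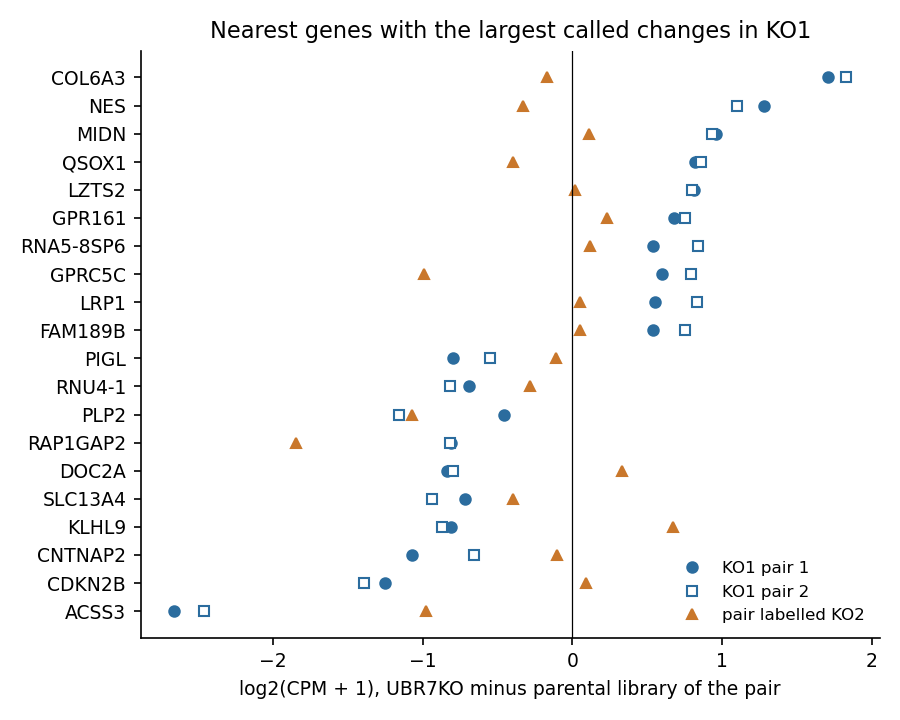
Difference in log2(CPM + 1) between the UBR7KO and the parental library of each of 3 pairs (x axis) for the 10 largest rises and 10 largest falls called in KO1 among nearest genes (y axis). The KO1 pairs lie together for COL6A3 (1.71 and 1.83) and ACSS3 (-2.66 and -2.46), and the pair labelled KO2 lies at -0.17 and -0.98.

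None of the nearest genes of the 10 peaks of highest score passed the test. In the KO1 comparison with the block, limma gave a log2 change of 0.09 for RAD54L2, 0.12 for ACSF3, 0.14 for CLK3, 0.05 for ARID1A and 0.02 for NOSIP. Of the 40 genes with 3 or more peaks, 39 were tested and 2 were called higher, GALNT2 (0.45), an enzyme of O-glycosylation, and FMN2 (0.65), an actin nucleator. DAB2IP, with the most peaks, had a log2 change of -0.48 (SE 0.15, adjusted p = 0.0922 by limma with the block). The nearest gene by distance is not known to be the gene that a distal place acts on.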

How the data were processed

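The peaks and gene lists were chosen with earlier results of these data known. Per the labels, ChIP and ATAC libraries were read as 50 bp single ends. The submitters' processing notes name Bowtie, Bowtie2 2.3.1, TopHat2 2.1.0, HTSeq 0.6.1, MACS2, edgeR, Picard and bedtools, without a role for each. Coordinates are of the GRCh37 type, counted from 1: UBR7 starts at 93673401 on chromosome 14 in the files and at 93207256 in GRCh38. The deposited GFP-UBR7 list gives a score per peak, as the authors' caller wrote it. The deposited ATAC lists give −log10 q for each peak, and the authors called peaks per library. The authors' RNA table gives CPM per library. The log2 fold changes, p-values and counts used here are not the deposited ones: log2(CPM + 1) was computed with a pseudocount of 1 from the deposited CPM, and whole reads of 5 libraries were recovered (100% of values whole within 0.01 reads; parental 1 was left out of count tests).

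Distances run from the nearer peak edge to a gene start. ATAC peaks of the 4 lists were merged into regions. Genes above 1 CPM in at least 3 libraries (2 in the dated pairs) were tested with limma 3.58.1 (trend, robust) and Benjamini-Hochberg adjustment over all of them; the script was tested on simulated data. Named were the 10 highest-scoring peaks, the 5 highest per ATAC pattern, 3 on each side of 1 kb, the 3 farthest, genes with 3 or more peaks (in counts and examples), and up to 10 called nearest genes in each direction. Descriptions carry 2 date codes, each on 1 parental and 1 KO1 library; the third pair is undated. Same-numbered libraries deviated together (r = 0.758, 0.736 and 0.633; -0.443 to -0.251 across numbers), so the numbers were taken to pair the samples. edgeR 4.0.16 and DESeq2 1.42.0 were alternatives. The 6 CUT&RUN samples were not analysed here. Some results are not reported here.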

Additional observations from a re-analysis of the deposited data

Results flagged for a closer look

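The change of several named genes differed between the line labelled KO2 and KO1, by limma on the difference between their pairs (1 KO2 library, 1 residual degree of freedom, so the single KO2 pair is assumed to vary like the KO1 pairs). UBR7 itself differed by 1.15 on the log2(CPM + 1) scale, being low in KO1 only. Genes that rose in KO1 differed downward in the KO2 pair: COL6A3 by -1.94, GPRC5C by -1.68, NES by -1.51, QSOX1 by -1.24 and CACYBP by -0.69. Genes that fell in KO1 differed upward for ACSS3 by 1.59, KLHL9 by 1.51, CDKN2B by 1.41 and DOC2A by 1.15, and downward for RAP1GAP2 by -1.04. DUSP2, a phosphatase gene with 3 distal open peaks, differed by 2.43: it stood at 5.94 CPM in the library labelled KO2 and at 0.157 to 1.48 CPM in the other 5. Of the 53 nearest genes called in KO1, 18 differed between the lines at an adjusted p under 0.05. Over all 13697 tested genes 689 did (5.03%), but the 53 were chosen for their change in the same KO1 pairs, so nothing is read from the larger share. The part of the line, the date and the level of UBR7 in these differences cannot be told apart.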

How the results depend on the processing

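Counts of distal open peaks moved by over 1.5 times with ATAC peaks of −log10 q of at least 5 only (281), the authors' replicate-intersected sets (854), scores at or above 64.7 (770) and, chosen after seeing the data, with RefSeq starts added (1004). The share in gene bodies was 50.8% beyond 2 kb, 47.6% beyond 5 kb, 58.2% at the higher scores and 40.2% with RefSeq starts added. The share in all 4 lists was 20.9% when 1 list had to cover at least 50% of a peak, 0% at −log10 q of at least 5, 33.4% at the higher scores and 19.4% with RefSeq starts added. In the KO1 comparison, the fit without pairs called no nearest gene. Paired, with the date pair as replicate block, it called 38 higher and 15 lower. The whole-read fits, and those leaving out 1 library without the block, have 1 library in a group, so their calls are not given. Leaving out 1 library moved the median log2 change of nearest genes between -0.04 (without parental 2) and 0.15 (without parental 1). Leaving out a library with the block leaves no residual degrees of freedom and was not run. The 20 genes named for their change in KO1 kept direction and call with pseudocount 0.1, no filter and TMM scaling, though COL6A3 went from 1.77 to 2.66 and ACSS3 from -2.56 to -3.85 with pseudocount 0.1, and all 20 lost the call without the block. The cause of these differences was not tested. Motif counts in the peaks were not run. Depth of the ChIP and ATAC libraries was not given in the sources used here, so absence from a short ATAC list does not show closed chromatin.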
